A study of Mus musculus with 28 samples.

Results

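The enzymes that turn cholesterol into bile acids were followed through 9 genes, Cyp7a1, Cyp27a1, Cyp8b1, Hsd3b7, Akr1d1, Slc27a5, Acox2, Amacr and Baat, chosen by name and found as 9 of the 33856 gene rows of a mouse liver count table. Each well of that table held a hepatocyte with a CD31+ cell still attached to it, here called a pair, and its transcripts were counted with MARS-seq, a plate method that tags mRNA molecules at the 3' end with unique molecular identifiers (UMIs). There were 4621 pairs, from 17 libraries of 3 C57BL/6 male mice, 1 aged 6 weeks and 2 aged 7 weeks. A second table, with 3720 wells of single liver cells other than hepatocytes, gave a background level. Those cells (11 libraries) came from 2 males of the same strain, aged 3 and 4 months. All mice lived on a reversed light cycle, were fasted for 2 hours from 7 in the morning and were anaesthetised with ketamine and xylazine before collagenase perfusion of the liver. The labels name no other treatment and no genetic change.

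Bile acids are made from cholesterol in hepatocytes. The classical route opens with 7-alpha hydroxylation by CYP7A1 in the endoplasmic reticulum, and the alternative route with side chain hydroxylation by the mitochondrial enzyme CYP27A1. The sterol rings are then modified by HSD3B7, CYP8B1 and AKR1D1, the side chain is activated and shortened, in large part in peroxisomes, and BAAT joins the acid to taurine or glycine. In the liver lobule, hepatocytes around the central vein and hepatocytes around the portal triad differ in many of their genes, and bile acid synthesis is known for its pericentral bias.

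Of the 4621 pairs 4620 were kept, with a median of 10451 UMIs and a range of 2423 to 49311. The 9 genes had 141699 UMIs in them. Each pair was placed along the lobule by a score that set 13 pericentral landmark genes, such as Glul, against 12 periportal ones, such as Cyp2f2. None of the 9 genes is a landmark. The pairs were cut by score into 9 layers of 513 or 514 pairs, layer 1 the most pericentral and layer 9 the most periportal, with median depths of 10030 to 11172 UMIs, and 968 pairs lay within 0.01 of a limit between layers. Well names carry no map to a library or mouse, so the table counts as 1 sample: no p-value is given, and every interval is a 95% interval that covers counting error only. A level is given as UMIs per 1000000 gene UMIs, written UPM, and because only 3' ends were counted and levels are not per length, levels of different genes were not compared.

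The labelled cell types were seen in the pairs. The 8 hepatocyte markers found summed to 96631 UPM in layers 1 to 3 and 152786 in layers 7 to 9, and the 12 endothelial markers to 660 and 786. Stellate cell markers were found in 33.2% of pairs, cholangiocyte markers in 7.94% and Kupffer cell markers in 6.08%. The 10 Kupffer cell markers, 1 of them at 0, summed to 5.80 and 8.67 UPM in the same layers and the 8 stellate cell markers to 56.6 and 55.8. The 5 B cell markers, 1 of them at 0, summed to between 0.617 and 5.27 UPM in the 9 layers, higher in the pericentral ones. The 7 cholangiocyte markers summed to 1.99 and 17.1, with Krt19, Krt7 and Ggt1 at 0, and the 8 T and NK cell markers had 7 UMIs in all, with 4 of them at 0. Their part in the results below was not tested, except that over the 4339 pairs without any Kupffer cell marker UMI 4 of the 9 genes were again at least 1.5-fold higher in layers 1 to 3. By their numbers the pair wells also form 17 plate-sized blocks. The blocks bear the numbers 1 to 16 and 41, as do the titles of the pair libraries, but no source states that a block is a library. Blocks 1 and 2 held only 8 and 67 pairs and stood apart, with median depths of 23400.5 and 21427 UMIs against 7400.5 to 13296 elsewhere.

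Across the lobule the 9 genes fell into no single pattern. Cyp7a1, Hsd3b7 and Cyp27a1 declined from layer 1 to layer 9, Amacr was highest in layer 1 and changed less beyond layer 4, and Cyp8b1, Akr1d1, Baat, Slc27a5 and Acox2 had their highest level away from layer 1. Between layers 1 to 3 and layers 7 to 9, with 1540 pairs each, 4 of the 9 genes were at least 1.5-fold higher in the pericentral layers, where 9.1% of the 11426 genes with at least 30 UMIs were. None of the 9 was 1.5-fold lower, as were 5.15% of all genes. The interval of the log2 ratio lay above 0 for 8 of the 9 genes, against 29.5% of all genes, and below 0 for 1 of 9, against 12.3%. The median log2 ratio of the 9 was 0.42, beside 0.09 over all genes. Log2 ratios are therefore best read against 0.09. Alb, the albumin gene, had 34354 UPM in layer 1 and 94519 in layer 9, and the part of this in the shift was not tested.

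**Figure D1:**
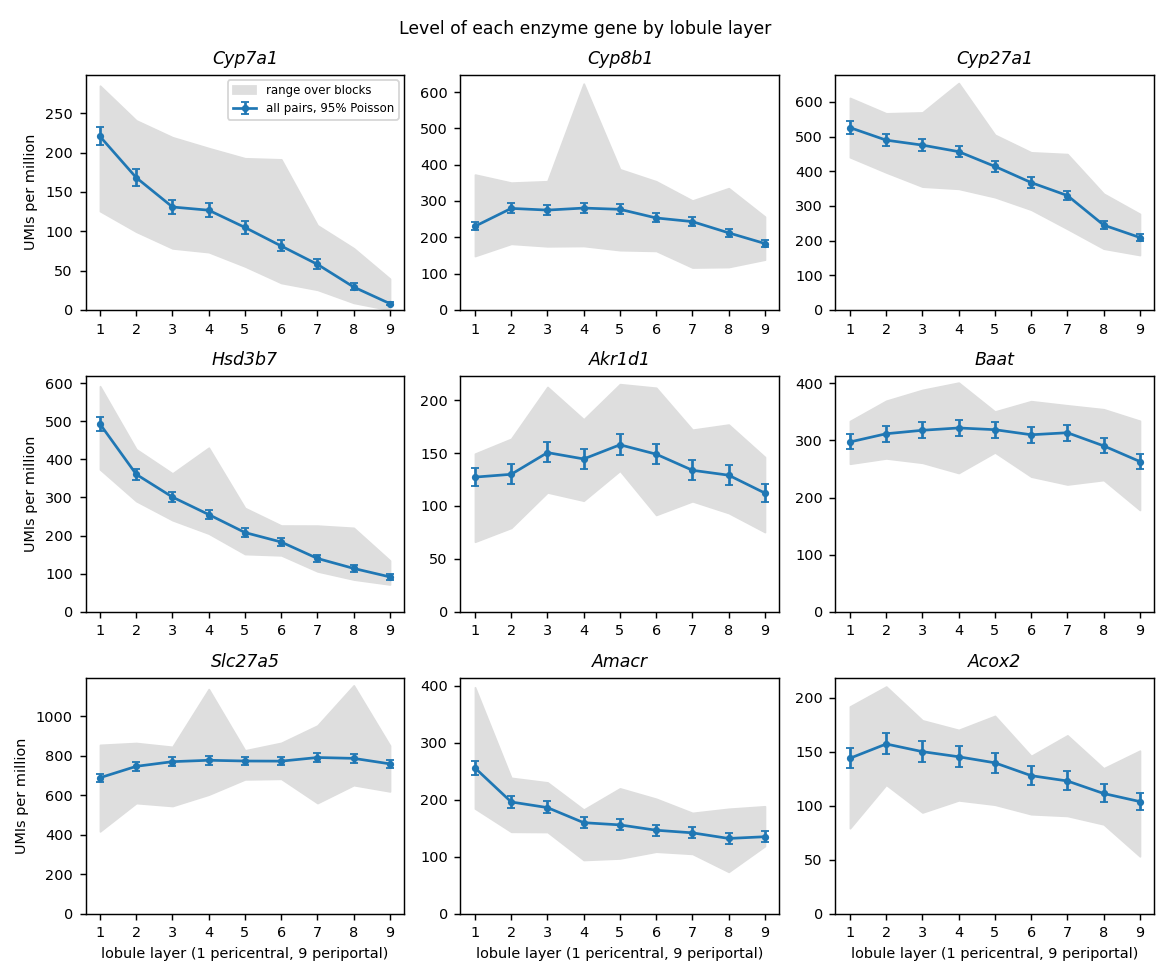
Level of each of the 9 genes, in UPM, in the 9 lobule layers from pericentral (1) to periportal (9). Points are all pairs of a layer with 95% Poisson intervals, and the grey band spans the lowest and highest block with at least 10 pairs in that layer; Cyp7a1 has 221 in layer 1 and 8.02 in layer 9, while Slc27a5 stays between 689 and 792.

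Cyp7a1 encodes cholesterol 7-alpha-hydroxylase, the rate-limiting enzyme of the classical route. From layer 1 to layer 9 its level was 221, 168, 131, 127, 105, 81.3, 58.0, 29.1 and 8.02 UPM. Every step went down, and 7 of the 8 steps between neighbouring layers had an interval that excluded no change, all but the one between layers 3 and 4. Layer 1 was 27.5-fold above layer 9 (log2 ratio 4.78, interval 4.38 to 5.21). With 3315 UMIs in layers 1 to 3 against 596 in layers 7 to 9, the levels were 173 and 31.5 UPM, a log2 ratio of 2.46 (interval 2.33 to 2.59). The decline was graded, unlike that of Glul, the glutamine synthetase gene, which had 1927 UPM in layer 1, 202 in layer 2 and 86.6 in layer 9.

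In UPM, the level of Cyp7a1 in layer 9 was close to that of cells other than hepatocytes. Single non-parenchymal cells, which should not express it, had 4.46 UPM (interval 2.23 to 7.99), which overlaps the interval of layer 9, 5.99 to 10.5, while layer 8, at 29.1, lay above both. The single cells came from other and older mice and were shallower, with a median of 710 UMIs in the 2692 wells holding at least 300. By share, 0.334% of these wells had a Cyp7a1 UMI, against 9.36% of the pairs of layer 9 without thinning. The hepatocyte gene Alb was found in 85.4% of these wells. Whether their UPM is a fit background for the deeper pairs was not tested.

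Cyp27a1 encodes sterol 27-hydroxylase, which opens the alternative route and also oxidises the side chain in the classical one. Its level was 526, 490, 475, 457, 414, 367, 330, 245 and 209 UPM from layer 1 to layer 9. It was lower at every step, in 6 of 8 steps beyond counting error, and the decline was shallow near the central vein and steepest between layers 7 and 8. Layer 1 was 2.52-fold above layer 9, and layers 1 to 3 held 497 UPM against 261 in layers 7 to 9 (log2 ratio 0.93, interval 0.88 to 0.98).

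Hsd3b7 encodes the 3-beta-hydroxysteroid dehydrogenase that acts on 7-alpha-hydroxylated sterols of both routes. It had 492, 360, 301, 255, 208, 183, 140, 114 and 91.4 UPM from layer 1 to layer 9. All 8 steps went down with intervals that excluded no change, which no other gene of the 9 showed. Layer 1 was 5.39-fold above layer 9, and the log2 ratio of layers 1 to 3 over layers 7 to 9 was 1.75 (interval 1.68 to 1.82; levels of 385 and 115). In the GENCODE M21 annotation Hsd3b7 overlaps Gm49388 on its own strand and 9430064I24Rik on the other, so its counts could include reads of these genes and are uncertain in that respect.

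Cyp8b1 encodes sterol 12-alpha-hydroxylase, whose activity directs the pathway to cholic acid. Its level did not follow that of Cyp7a1, with 230, 280, 275, 281, 277, 253, 243, 212 and 183 UPM from layer 1 to layer 9. Layer 1 lay below layers 2 to 5 and ranked seventh among the 9 layers. The pair of zones alone would show only a small pericentral excess, 261 against 212 UPM (log2 ratio 0.30, interval 0.24 to 0.36).

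Promoter sequences are shown for Cyp8b1, which over all pairs dipped in layer 1, and Hsd3b7, which declined at every step. They are the 250 bases before the annotated start, from RefSeq on GRCm38.p6, at chr9:121916306-121916555 on the minus strand and chr7:127800359-127800608 on the plus strand. Of the 9 genes 5 had an entry. Capitals mark matches to CAAAGTCCA (HNF4A), NCAAGGNCA (NR5A2) or CTTTGAT (TCF/LEF), searched on both strands.
Cyp8b1: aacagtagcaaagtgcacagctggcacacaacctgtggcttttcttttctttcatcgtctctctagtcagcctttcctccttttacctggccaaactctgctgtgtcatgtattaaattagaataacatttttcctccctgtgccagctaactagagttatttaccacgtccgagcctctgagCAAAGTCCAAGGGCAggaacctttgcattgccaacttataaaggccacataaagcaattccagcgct
Hsd3b7: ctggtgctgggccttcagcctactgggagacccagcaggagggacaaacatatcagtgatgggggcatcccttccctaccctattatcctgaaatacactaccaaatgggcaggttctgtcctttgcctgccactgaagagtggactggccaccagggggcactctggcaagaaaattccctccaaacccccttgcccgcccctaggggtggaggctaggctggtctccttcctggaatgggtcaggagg
In Cyp8b1 a match to the HNF4A letters, 67 to 59 bases before the start, overlapped a match to the NR5A2 letters, 61 to 53 bases before it. Of 27025 promoters of this length 0.381% held the HNF4A letters, 5.47% the NR5A2 letters and 3.23% the TCF/LEF letters. None of the 3 was found in the Hsd3b7 stretch, nor in those of Cyp27a1, Akr1d1 and Acox2. A match describes letters only, and no binding was measured here.

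Akr1d1 encodes the 5-beta-reductase that reduces the double bond of the sterol ring system. It had 127, 130, 150, 144, 158, 149, 134, 129 and 112 UPM, highest in layer 5 and lowest in layer 9. Its layers 1 to 3 and 7 to 9 differed by a log2 ratio of 0.12 (interval 0.04 to 0.20), which is close to the median of all genes. The pseudogene Gm7463 lies within Akr1d1 on the same strand in that annotation, and any reads of it could not be separated here.

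The steps on the side chain were mixed. Slc27a5, which encodes the bile acid CoA ligase needed before conjugation, was nearly flat, with 689, 747, 770, 778, 774, 773, 792, 787 and 759 UPM from layer 1 to layer 9. Only the step between layers 1 and 2 exceeded counting error, and the log2 ratio of layers 1 to 3 over layers 7 to 9 was -0.08 (interval -0.12 to -0.05), the only one of the 9 below 0. Amacr, the racemase that turns the side chain into the form peroxisomal oxidation accepts, had 256, 196, 186, 160, 156, 146, 142, 132 and 135 UPM. Its decline lay mostly in the first layers, and only the steps from layer 1 to 2 and from layer 3 to 4 exceeded counting error. Amacr passed the 1.5-fold mark narrowly, with 213 UPM in layers 1 to 3 and 136 in layers 7 to 9 (1.56-fold, log2 ratio 0.64, interval 0.57 to 0.72), and lay below it under several other settings.

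Acox2 encodes the branched-chain oxidase that starts peroxisomal shortening of the side chain. It had 144, 157, 150, 145, 140, 128, 123, 111 and 104 UPM from layer 1 to layer 9, and no step between neighbouring layers exceeded counting error. Taken over 3 layers at each end it was 1.34-fold higher in layers 1 to 3, with 150 UPM against 113 (log2 ratio 0.42, interval 0.34 to 0.50). Baat, which encodes the conjugating enzyme, had 297, 312, 318, 322, 319, 310, 314, 291 and 263 UPM. It was level over most of the lobule and lower in layers 8 and 9, with a log2 ratio of 0.10 between layers 1 to 3 and layers 7 to 9 (interval 0.04 to 0.15), again at the median of all genes.

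Because some genes dipped in layer 1, that layer was also set against its neighbours, a comparison chosen with these values known. In layer 1 (514 pairs) against layers 2 and 3 (1026 pairs), 0 of the 9 genes were 1.5-fold higher or lower, where 3.93% and 3.87% of 10380 genes were. Hsd3b7 had 492 UPM in layer 1 and 330 in layers 2 and 3 (log2 ratio 0.58, interval 0.51 to 0.64), Cyp7a1 a log2 ratio of 0.56 (0.46 to 0.66) and Amacr one of 0.42 (0.33 to 0.51). Cyp8b1 went the other way, with 230 against 277 UPM (-0.27, interval -0.36 to -0.18), followed by Akr1d1 and Slc27a5 at -0.14 each. In all, 4 of 9 intervals lay above 0 and 4 below, against 11.9% and 7.97% of all genes. Other markers were lower in layer 1 as well. The interval lay below 0 for 7 of 8 hepatocyte markers (median log2 ratio -0.24), 9 of 12 endothelial markers (-0.36) and 4 of the 6 stellate cell markers measured (-0.70), and their part in the dip of Cyp8b1 was not tested.

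Layers 4 to 6 were set against each end of the lobule in the same way, again with these values known. In layers 4 to 6 Cyp8b1 had 270 UPM, against 230 in layer 1 (log2 ratio 0.23, interval 0.15 to 0.31) and 183 in layer 9 (0.56, interval 0.47 to 0.66). Akr1d1 had 150 there, against 127 in layer 1 (0.24, interval 0.13 to 0.35) and 112 in layer 9 (0.42, interval 0.31 to 0.54). Over all pairs, Cyp8b1, Akr1d1 and Baat were thus above both ends of the lobule beyond counting error. For Baat the log2 ratio was 0.09 over layer 1 (interval 0.02 to 0.17) and 0.27 over layer 9 (interval 0.19 to 0.35). Blocks 10 to 16 held 342 of the 514 pairs of layer 1 but 160 of the 513 of layer 9. In them Cyp8b1 had 194 UPM in layer 1 and 245, 230 and 200 in layers 4, 5 and 6. In blocks 3 to 9 and 41 it had 281 in layer 1 and 287, 292 and 275 in layers 4, 5 and 6. For Baat the values of the same layers were 307, 305, 311 and 302 in blocks 10 to 16. They were 280, 334, 324 and 316 in blocks 3 to 9 and 41, so its excess over layer 1 was not common to both sets. Akr1d1 had 129, 134, 154 and 142 in blocks 10 to 16 and 118, 153, 161 and 153 in the other set. The part of the blocks in the pooled pattern was not tested. Over layer 1, 4 of the 9 genes had an interval above 0, against 12.5% of 10871 genes, and 4 below 0, against 18.8%. Of the 9, 0 were 1.5-fold higher in layers 4 to 6 than in layer 1 and 3 were lower (Cyp7a1, Hsd3b7 and Amacr), against 7.41% and 6.91% of all genes. Over layer 9 the interval lay above 0 for 8 of 9 genes, against 21.5% of 10775 genes, and below 0 for 0, against 5.74%. There 3 of the 9 were 1.5-fold higher (Cyp7a1, Hsd3b7 and Cyp27a1), against 8.93% of all genes, and 0 lower, against 2.7%. The same markers were higher in layers 4 to 6 than in layer 1, with median log2 ratios of 0.45 for hepatocyte, 0.51 for endothelial and 0.64 for stellate cell markers. Over layer 9 the medians were -0.18, 0.18 and 0.26.

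The share of pairs with at least 1 UMI was compared with each pair thinned to 5000 UMIs, which left 3988 pairs and dropped 632 shallower ones. Cyp7a1 was then found in 62.3%, 50.3%, 43.5%, 46.0%, 40.2%, 30.4%, 21.0%, 11.7% and 5.15% of pairs from layer 1 to layer 9. Without thinning the share was 82.3% in layer 1 and 9.36% in layer 9. Even among the most pericentral pairs many thus had no Cyp7a1 UMI at this depth, which sets a limit on detection and not on expression.

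Hsd3b7 was found in 90.9% of thinned pairs in layer 1 and 35.3% in layer 9, and Cyp27a1, without thinning, in 97.5% in layer 1 and 82.3% in layer 9. Amacr was found in 72.5% of thinned pairs in layer 1 and 47.0% in layer 9, and Acox2 in 52.3% and 36.7% of the same layers. All 4 were found in a smaller share of pairs at the periportal end. Cyp8b1 was found in 60.3% of thinned pairs in layer 1, in 71.2% in layer 6, its highest share, and in 55.3% in layer 9. Akr1d1 was found in 43.0%, 52.4% and 39.8% of pairs in layers 1, 5 and 9, and Baat in 77.4%, 80.0% and 69.4%. Slc27a5 was present in 95.1% to 98.6% of pairs of every layer, so its share could hardly move.

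**Figure D2:**
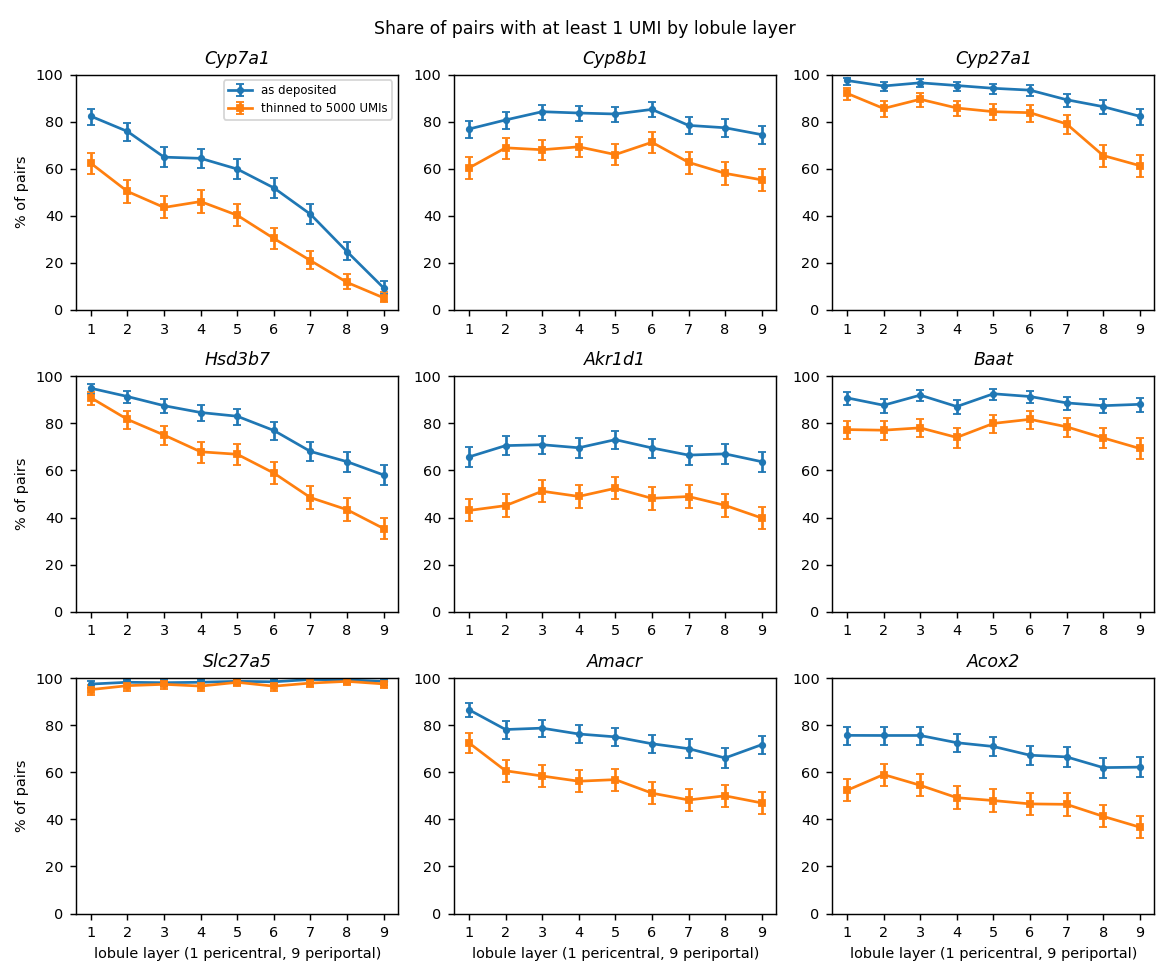
Share of pairs with at least 1 UMI of each gene, in percent, by lobule layer, from the counts as deposited and from pairs thinned to 5000 UMIs, with exact binomial 95% intervals. In thinned pairs Cyp7a1 spans 62.3% in layer 1 to 5.15% in layer 9, and Cyp8b1 is highest in layer 6 at 71.2%.

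As background for these shares, the 2692 single non-parenchymal wells had a Cyp7a1 UMI in 0.334% of wells, Cyp8b1 in 1.49%, Hsd3b7 in 2.93%, Cyp27a1 in 3.68% and Slc27a5 in 4.98%. Alb, the albumin gene of hepatocytes, was found in 85.4% of the same wells, so albumin RNA was widespread there. To allow for it, each gene was set against albumin. Per 1000 Alb UMIs, Hsd3b7 had 8.89 UMIs in the single wells and 3.73 in the pairs (log2 ratio 1.25, interval 0.95 to 1.53), and Cyp27a1 had 11.3 and 6.11 (0.88, interval 0.62 to 1.13). Slc27a5 had 16.9 and 11.9 (0.50, interval 0.29 to 0.71). Of the 9 genes these 3 had an interval above 0, while Baat (-1.06), Acox2 (-0.87) and Akr1d1 (-0.80) had one below 0. How many of all genes had such intervals was not counted, so these counts are a description only. In wells with at least 500 UMIs the value of Acox2 was -0.65 (interval -1.60 to 0.16). The hepatocyte gene Pck1 was below 0 as well (-0.59, interval -0.72 to -0.46).

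The same ratio was taken by cell class. In the 912 wells with endothelial markers Hsd3b7 had 59 UMIs, or 88.7 UPM, and a log2 ratio to the pairs per Alb of 2.04 (interval 1.65 to 2.41). In the 335 wells with Kupffer cell markers Cyp27a1 had 46 UMIs, or 105 UPM (1.89, interval 1.44 to 2.30), and was found in 8.96% of wells. Cyp8b1 had 20 UMIs in the Kupffer cell wells, in 4.18% of them, and a log2 ratio of 1.34 (interval 0.63 to 1.97). Hsd3b7 had one of 0.98 (interval 0.15 to 1.71) there, which became 0.76 (interval -0.25 to 1.60) in wells with at least 500 UMIs, and Cyp27a1 one of 0.45 (interval -0.10 to 0.95) in the endothelial wells. Classes were set by summed markers, and 665 of the 737 wells of no class lay near a limit. Wells and pairs came from different mice and ages, and whether the excess is expression in those cells was not tested.

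Positions were then taken anew within each of the 17 blocks. Hsd3b7 had 253 to 523 UPM in layers 1 to 3 and 87.4 to 232 in layers 7 to 9 of the blocks, with medians of 341 and 115. Its pericentral and periportal ranges did not overlap, nor did those of Cyp27a1, 399 to 675 against 77.1 to 374. The value of 77.1 is that of block 1, with 2 UMIs in 2 periportal pairs. How many of all genes had ranges that lay apart was not counted, so this is a description only. Cyp7a1 had 99.1 to 242 UPM in layers 1 to 3 and 0 to 118 in layers 7 to 9, ranges that overlap between blocks, although within each block the pericentral level was the higher one. Block median scores ran from 0.364 to 0.645, so layers taken within blocks were not at the same position in each. With the layers of all pairs, the Cyp7a1 ranges were 111 to 222 and 0 to 64.0 UPM and did not overlap.

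Among blocks where a gene reached 10 UMIs, Cyp7a1, Cyp8b1, Cyp27a1 and Hsd3b7 were higher in layers 1 to 3 in 17 of 17 blocks, Amacr in 16 of 16 and Acox2 in 16 of 17. Baat was higher there in 13 of 17, Akr1d1 in 12 of 16 and Slc27a5 in 3 of 17. The like counts over all genes were not made. The block medians of the log2 ratio were 2.54 for Cyp7a1, 1.61 for Hsd3b7, 0.88 for Cyp27a1, 0.54 for Amacr, 0.42 for Cyp8b1 and 0.38 for Acox2. For Akr1d1, blocks 3 to 9 and 41 were all on the pericentral side (8 of 8), against 3 of 7 of blocks 10 to 16, so its small pooled ratio had no direction common to all blocks.

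**Figure D3:**
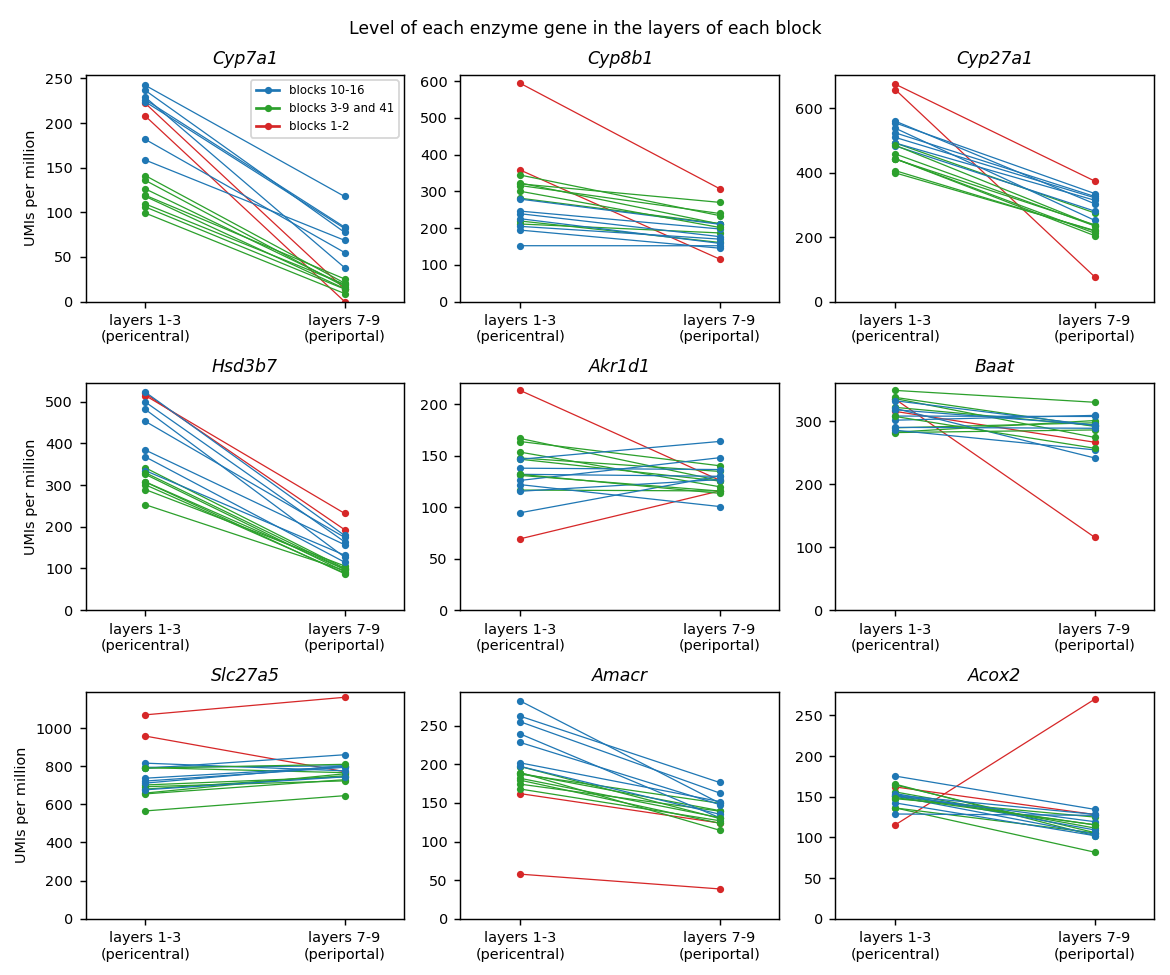
Level of each gene, in UPM, in layers 1 to 3 (left) and layers 7 to 9 (right) of each of the 17 blocks, with layers taken within the block and a line joining the values of 1 block. Cyp7a1 lines of blocks 10 to 16 lie above those of blocks 3 to 9 and 41 at both ends, and blocks 1 and 2 hold only 8 and 67 pairs. Median scores differ between blocks, so these layers are not at the same lobule position in each block.

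Blocks 10 to 16 and blocks 3 to 9 and 41 differed in several of these genes within the same layers. The labels give libraries P10 to P16 to 1 mouse and P3 to P9 and P41 to another, both aged 7 weeks, but the blocks could not be assigned to them, and the split was made with these values known. From layer 1 to layer 9 Cyp7a1 had 242, 191, 158, 172, 156, 134, 86.2, 47.3 and 14.3 UPM in blocks 10 to 16. In blocks 3 to 9 and 41 it had 175, 134, 98.3, 87.9, 72.7, 56.4, 47.2, 20.7 and 5.71. It was higher in blocks 10 to 16 in all 9 layers beyond counting error, by 1.38-fold in layer 1 and up to 2.50-fold in layer 9, with a median of 1.96-fold.

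Hsd3b7 was also higher in blocks 10 to 16, beyond counting error in 8 of 9 layers, but by a median of only 1.19-fold. Cyp8b1 went the opposite way and was lower in blocks 10 to 16 in all 9 layers, at 0.650 to 0.902 times the level of blocks 3 to 9 and 41, beyond counting error in 8 of them (all but layer 9). In layer 1 it had 194 UPM in blocks 10 to 16 and 281 in blocks 3 to 9 and 41. Layer 2 had 242 and 292 UPM in the same sets, and whether the dip of layer 1 differed between the sets was not tested.

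Over all 6899 genes with at least 500 UMIs in these blocks, 3.55% were higher in blocks 10 to 16 in at least 8 of 9 layers and 3.87% lower, where 2 and 1 of the 9 genes were. By the median fold over layers, 3.01% of all genes were at least 1.5-fold higher and 2.78% lower, where of the 9 genes 1 (Cyp7a1) was higher and 0 were lower. Slc27a5 was higher in blocks 10 to 16 in all 9 layers, beyond counting error in 7, by a median of 1.07-fold, and Acox2 differed beyond counting error in none. The layers were not of equal make-up in both sets, and Glul was higher in blocks 10 to 16 in all 9 layers. In layer 1 the median score was 0.841 in blocks 10 to 16 and 0.822 in blocks 3 to 9 and 41, and Glul had 2296 and 1335 UPM. Median depth was lower in blocks 10 to 16, at 7940.5 to 10339.5 UMIs per layer against 10472 to 12616. The part of these differences in the result was not tested.

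**Figure D4:**
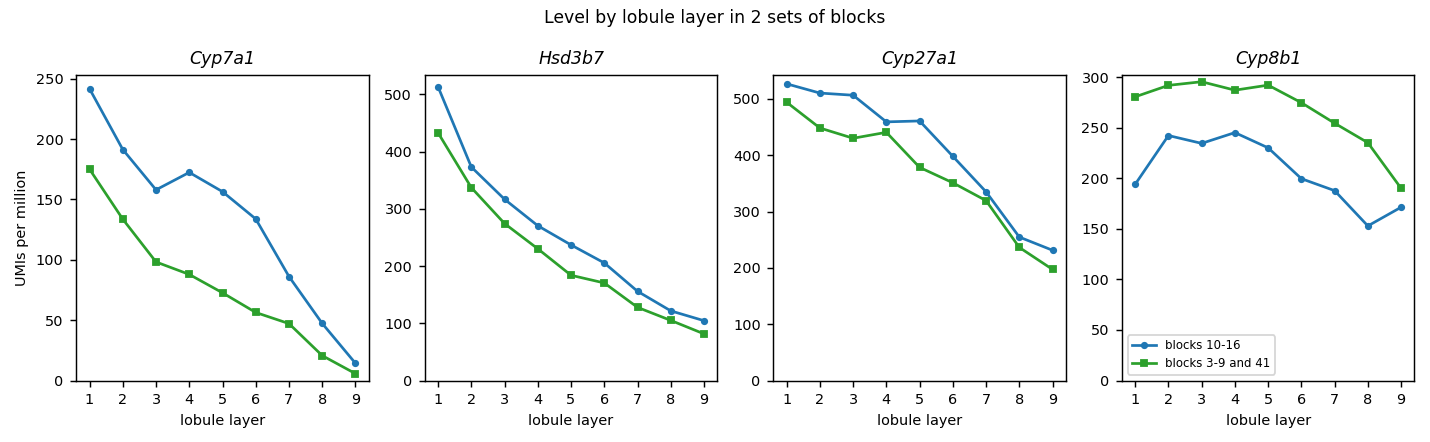
Levels of Cyp7a1, Hsd3b7, Cyp27a1 and Cyp8b1, in UPM, by lobule layer in blocks 10 to 16 and in blocks 3 to 9 and 41. Cyp7a1 is higher in blocks 10 to 16 in every layer, by a median of 1.96-fold, and Cyp8b1 is lower in them in every layer, beyond counting error in 8 of 9.

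Within the pericentral layers correlations among the 9 genes from pair to pair were weak. Across the 1345 thinned pairs of layers 1 to 3, Pearson's r of log2(count + 1) over the 36 gene pairs had a median of 0.00858 and ran from -0.0837 to 0.0999, with 21 above 0. These pairs share plates and position as well as cells. Over all gene pairs of the 2936 genes with a thinned mean of at least 0.2 UMIs, the median was 0.00204 and the central 95% lay between -0.0607 and 0.0658, and 5 of the 36 gene pairs fell outside that span, 2 above and 3 below. The highest r joined Cyp27a1 and Slc27a5 and the lowest Slc27a5 and Amacr. The highest was 0.0912 within layers and blocks and the lowest -0.068. All these r values are weak and are given as a description only. Thinned means were low, from 0.66 UMIs per pair for Akr1d1 to 3.73 for Slc27a5, and counting noise at such means pulls r towards 0. A weak r here therefore does not show that the genes vary independently from cell to cell.

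Cyp7a1 had an r of -0.03 with Cyp8b1, 0.06 with Cyp27a1 and 0.06 with Hsd3b7 in these layers. With the mean of each layer and block taken off, the 3 values were 0.00, 0.05 and -0.00. Over all 9 layers (3988 pairs) Cyp7a1 had an r of 0.19 with Hsd3b7 and 0.16 with Cyp27a1, and Cyp27a1 and Hsd3b7 had 0.14, the 3 highest of the 36. The genes that decline together along the lobule thus correlated over the whole lobule and more weakly within its pericentral layers.

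**Figure D5:**
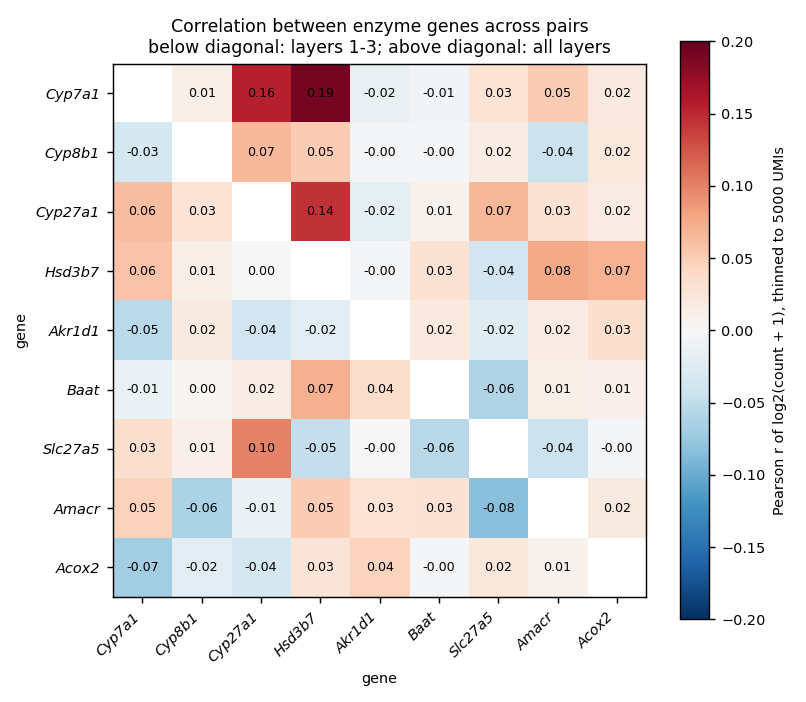
Pearson's r of log2(count + 1) between each 2 of the 9 genes across pairs thinned to 5000 UMIs, for layers 1 to 3 (1345 pairs, below the diagonal) and all layers (3988 pairs, above it). Values in layers 1 to 3 run from -0.08 to 0.10, and the highest values over all layers are those between Cyp7a1, Hsd3b7 and Cyp27a1.

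Pairs of layers 1 to 3 with at least 2 thinned UMIs of Cyp7a1 (299 pairs) and with none (645 pairs) were also set side by side. Hsd3b7 had 2.08 UMIs per pair in the first and 1.87 in the second (log2 ratio 0.16, interval 0.02 to 0.30), Cyp27a1 2.60 and 2.36 (0.14, interval 0.01 to 0.26), and Slc27a5, which did not decline along the lobule, 4.08 and 3.66 (0.16, interval 0.06 to 0.26). In layers 2 and 3 alone Slc27a5 had a log2 ratio of 0.20 (interval 0.07 to 0.32), Cyp27a1 one of 0.17 (0.01 to 0.33) and Hsd3b7 one of 0.01 (-0.19 to 0.21). Glul, a landmark of the innermost hepatocytes, differed far more, with 6.11 and 2.80 UMIs per pair (1.12, interval 1.03 to 1.22), so the 2 sets were not at the same position. In layer 1 alone Cyp8b1 had 0.908 UMIs per pair where Cyp7a1 was at least 2 (131 pairs) and 1.23 where it was 0 (170 pairs), a log2 ratio of -0.44 (interval -0.77 to -0.11). In layers 2 and 3 it had 1.33 and 1.29 (0.05, interval -0.18 to 0.27). The sets of layer 1 also differed in Glul, with 12.5 and 7.98 UMIs per pair (0.65, interval 0.55 to 0.76), while in layers 2 and 3 Glul had 1.09 and 0.952 (0.19, interval -0.06 to 0.45). The Cyp8b1 difference in layer 1 is therefore not between pairs at a matched position. In layers 2 and 3 the pericentral landmark Cyp2e1 differed, with 55.8 and 50.6 UMIs per pair (0.14, interval 0.11 to 0.18). The sets of layers 2 and 3 were thus not matched in position. The 2 sets were not matched for block either. In layer 1, blocks 10 to 16 had more Cyp7a1 than blocks 3 to 9 and 41 (242 and 175 UPM) and less Cyp8b1 (194 and 281). The part of the blocks in the difference was not tested.

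The spread of counts from pair to pair differed between the genes. In thinned pairs of layers 1 to 3, 48.0% had no Cyp7a1 UMI, 29.8% had 1 and 22.2% had 2 or more, up to 10. Its variance was 1.38 times its mean, and the squared coefficient of variation beyond counting was 0.44, or 0.36 within layers and blocks, where the quartiles of the 1306 genes with a thinned mean of at least 0.5 were 0.06 and 0.16. That was the highest of the 9. Cyp8b1 had 0.22, Akr1d1 0.17, Amacr 0.16 and Slc27a5 0.11, and within layers and blocks 0.18, 0.15, 0.13 and 0.09. Hsd3b7 had 0.11 over the 3 layers and 0.06 within layers and blocks, where Cyp27a1 had 0.06, Baat 0.04 and Acox2 -0.02.

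Over the 9 layers each gene was set against 6962 others with at least 500 UMIs by Pearson's r of log2(level + 1), as a description over points that share the same pairs. Pon1, a paraoxonase gene, was most like Cyp7a1 (r = 0.999), followed by Rnase4 and Cyp2c50. Pon1 had 1565, 1072 and 305 UPM in layers 1, 5 and 9. Gstm3, Chpt1 and Ugt1a1 were most like Hsd3b7, and Plbd1, Gstm1 and Aldh3a2 most like Cyp27a1.

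The remaining genes had other neighbours. Cyp8b1 and Baat shared Ces1d, a carboxylesterase gene with 1202, 1430 and 912 UPM in layers 1, 5 and 9, as the most similar gene (r = 0.991 and 0.983). Ephx1 and Slc25a1 came next for Cyp8b1, and Ces1c and Ces1b for Baat. Rpl28-ps3 and Acap2 were among the 3 genes most like Akr1d1 (r = 0.932 each). Acox2 was most like the sterol transporter gene Abcg8 (r = 0.993), then Nme3 and Ces2a, Amacr most like Tmem56, Idh2 and Ttc38, and Slc27a5 most like Ppp5c, Igfbp7 and Scnn1a. Counts of Cyp2c, Ces1, Gstm and Ugt1a genes and of the pseudogene Rpl28-ps3 could hold reads of near-identical copies and are uncertain. For Slc27a5 the likeness rests on a profile whose highest layer was only 1.15-fold above its lowest.

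Among the 9 genes themselves, the layer profile of Cyp7a1 had an r of 0.978 with Cyp27a1, 0.939 with Acox2, 0.925 with Hsd3b7, 0.827 with Cyp8b1, 0.588 with Akr1d1 and -0.399 with Slc27a5. Cyp8b1 was closest to Baat (0.956).

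Other genes listed for synthesis and side chain steps were pericentral, periportal or neither. Of 14 further synthesis and side chain genes 13 were measured between layers 1 to 3 and layers 7 to 9. Of these, 5 were at least 1.5-fold higher in layers 1 to 3 and 3 lower, against 9.1% and 5.15% of all genes. The median log2 ratio was 0.39. The peroxisomal thiolase gene Acaa1b had 1512 UPM against 501 (1.59, interval 1.56 to 1.63). Cyp7b1, the oxysterol 7-alpha-hydroxylase of the alternative route, had 454 against 212 (1.10, interval 1.05 to 1.16), and Akr1c6 had 1653 against 804 (1.04). The other 2 were Acaa1a (0.84) and Acot8 (0.75). Whether Acaa1b and Acaa1a serve the bile acid side chain was not tested.

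Another 7-alpha-hydroxylase gene stood opposite to Cyp7a1 and Cyp7b1. Cyp39a1, which acts on 24-hydroxycholesterol, had 8.78 UPM in layers 1 to 3 and 34.3 in layers 7 to 9, with 168 against 649 UMIs (log2 ratio -1.97, interval -2.22 to -1.72). Cyp46a1, which makes that oxysterol and is known from the brain, had 5 UMIs in layers 1 to 3 and 29 in layers 7 to 9 (-2.55, interval -4.28 to -1.17), and is close to the limit of detection. Cyp2a12, a bile acid 7-alpha-hydroxylase of mice, had 584 against 1139 UPM (-0.96). Cyp2c70, which makes the muricholic acids of mice, had 656 UPM in layer 1, 900 in layer 5 and 517 in layer 9, and Ch25h had 0 UMIs in both zones.

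Genes of the control of the pathway had no common direction. Of 12 measured, 0 were at least 1.5-fold higher in layers 1 to 3 and 2 were lower, against 9.1% and 5.15% of all genes. The 2 were Ppargc1a, a coactivator of fasting responses (log2 ratio -1.55, 9.88 against 28.9 UPM), and Fgfr4, the receptor of the gut hormone FGF15 (-0.70, 109 against 175 UMIs). The interval lay above 0 for 4 of the 12 and below 0 for 4, against 29.5% and 12.3% of all genes. The list median was 0.04. The bile acid receptor gene Nr1h4 had 97.9 UPM in layers 1 to 3 and 101 in layers 7 to 9 (-0.04, interval -0.13 to 0.05), and its target Nr0b2, a repressor of Cyp7a1, 46.5 and 44.0 (0.08, interval -0.06 to 0.22). Nr5a2 had 19.4 and 14.9 (0.39) and Hnf4a 495 and 525 (-0.09), both genes of nuclear receptors known to act on Cyp7a1 and Cyp8b1. Of 10 transporter genes measured 5 were at least 1.5-fold higher in layers 1 to 3 and 0 lower (median 0.55), against the same 9.1% and 5.15%. The uptake carrier Slco1b2 led at 1.62, while the bile salt export pump gene Abcb11 had 0.08.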

How the data were processed

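Transcripts were measured with MARS-seq, per the labels' protocols. The submitters' processing notes name bcl2fastq 2.15.0.4 and the mm9 build, while the aligner is not given in the sources used here. Counts were deposited by the authors without normalization, as whole numbers of UMIs for each symbol in each well. The 92 ERCC spike-in rows, 0.715% of UMIs in the pair table and 52.8% in the single-cell table, and 68 symbols equal but for letter case in the single-cell table were left out. No well name was shared between the tables.

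Pairs needed at least 1000 UMIs and 20 landmark UMIs, which left out 1. The score was the sum of pericentral landmark UMIs over its mean, as a share of that value plus the like value for periportal landmarks. Layers were 9 equal bins of the score. Levels come from UMIs summed within a layer, and genes with at least 30 UMIs over both sides were compared. Levels have exact Poisson, shares exact binomial (Clopper-Pearson) and ratios exact conditional binomial intervals at 95%. UMIs limit amplification copies, yet these intervals cover counting error only. No count test was run, because the wells map to no library or mouse and each table is 1 sample. Thinning drew 5000 UMIs per pair without replacement (seed 11). Pck1 held 51.0% of periportal and Cyp2e1 48.2% of pericentral landmark UMIs.

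The 9 genes, the gene lists and the comparisons were chosen with earlier results of these data known. All 9 genes are named, with the 3 genes most like each over the layers (1 of them is not reported here) and the largest folds of the other lists; a few further control genes and transporters were named for their role after their values were seen. The comparison of layers was run on simulated Poisson counts: 95.4% of intervals held the true value for unchanged genes and 97.1%, 96.8% and 92.8% for folds of 1.5, 2 and 4. Such counts meet the assumption of the intervals, so shares near 95% were set by the design and check the calculation only. Real counts can spread more, as for thinned Cyp7a1 counts in layers 1 to 3, whose variance was 1.38 times the mean. The simulation does not cover that spread or differences between blocks. Python 3.11.15, numpy 2.4.6, scipy 1.17.1 and pandas 2.3.3 were used. Alternatives changed the layers, landmarks, weighting, depth, scaling, blocks and filters.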

Additional observations from a re-analysis of the deposited data

How the results depend on the processing

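No paired analysis was possible because the wells map to no mouse or library, so no replicate numbers could be joined to the layers. The number of the 9 genes at least 1.5-fold higher in layers 1 to 3 was 3 or 4 over 32 alternatives, and 0 were lower in each. It was 3, with Amacr under the mark, with the score cut into 2 equal parts, layers within each block, pairs thinned to 5000 UMIs, size factors and blocks 3 to 9 and 41 alone. Leaving out each block in turn gave 4 to 4 higher and 0 to 0 lower. Each of the 9 log2 ratios kept its sign under all 32. They ran from 1.62 to 4.78 for Cyp7a1, 0.18 to 0.45 for Cyp8b1, 0.67 to 1.33 for Cyp27a1, 1.27 to 2.43 for Hsd3b7, 0.48 to 0.92 for Amacr, 0.32 to 0.54 for Acox2, 0.03 to 0.18 for Akr1d1, 0.00 to 0.20 for Baat and -0.18 to -0.05 for Slc27a5. The highest values of Cyp7a1, Hsd3b7, Cyp27a1, Amacr and Akr1d1 come from layer 1 over layer 9, a wider contrast. Of the 32 alternatives 17 leave out 1 block each, and the one without a filter on low counts repeats the main values by design. Size factors shifted every ratio by 0.09. The alternatives without Pck1 in the score, without blocks 1 and 2 and within the 2 sets of blocks were chosen after the data were seen. The median correlation of the 36 gene pairs in layers 1 to 3 was 0.00858 and lay between 8.14e-05 and 0.0164 over 24 alternatives, and leaving out each block in turn gave 8.14e-05 to 0.0146. With thinned pairs or without blocks 1 and 2, 8 of 9 genes still had a higher share of pairs in layer 1 than in layer 9. With at least 500 UMIs per single well, 2 genes were still over 1.5-fold above the pairs per albumin UMI, a count not made over all genes. Depth limits the shares of Cyp7a1, Akr1d1 and Acox2, whose thinned mean was below 1 UMI per pair.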

Other observations

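Blocks 1 and 2, with 8 and 67 pairs, differed from the other 15 in members of the pathway and in a fasting-related gene. Pck1, the gene of a gluconeogenic enzyme, had 311 and 682 UPM in blocks 1 and 2, against 3571 to 4745 in the others. Over all layers Cyp8b1 had 348 and 512 UPM in blocks 1 and 2, against 161 to 306 elsewhere, and Slc27a5 had 912 and 1168 against 624 to 810. Amacr went the other way, with 58.0 and 125 against 143 to 212. Cyp27a1 had 543 and 549 against 308 to 475. Cyp7a1 was 116 and 120 in blocks 1 and 2, within the range of 57.2 to 176 of the others. Hsd3b7, Akr1d1, Baat and Acox2 did not lie to 1 side of the range of the others in both blocks. How many of all genes lay outside that range was not counted, so this is a description only. The labels give libraries P1 and P2 to the mouse aged 6 weeks, but the blocks could not be assigned to it.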
